A study of Mus musculus with 2 samples.

Results

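H2AZ peaks that lay at the ends of 2 or more neighbouring protein-coding genes are described here, set against peaks at the end of 1 gene only. The data came from 1 ChIP-seq library, made with an antibody to the histone variant H2AZ from neural progenitor cells of the E13 (embryonic day 13) C57BL/6 mouse brain, and 1 input library of the same cells. No further genotype or treatment is given for either library, and the labels do not say how many embryos were pooled. The measurements were a list of 21592 peaks, each with a position and a score of the authors' own. A peak was counted at a gene if it overlapped, by at least 1 bp, the 1 kb on either side of an annotated end of that gene, and it was called shared if it was at 2 or more different genes. Of 21546 peaks used, 1845 were shared (8.56%), 9282 were at 1 gene and 10419 were at no gene end. Shared peaks thus made up 16.6% of the 11127 gene-end peaks (95% exact interval 15.9 to 17.3%). They touched 3493 of 21774 protein-coding genes, and 266 of these genes were at 2 or more shared peaks, so peaks and genes are not independent units.

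Each group is 1 library, so no value has a replicate and no test was run, and peaks of 1 library are not replicates. All intervals are 95% exact intervals (Clopper-Pearson for shares, order statistics for medians) and cover counting error only. Read numbers were not analysed here, so the depth is unknown. The score is the authors' own value, what it measures is not named, and it was used only to describe and rank peaks within this list. Peak numbers run to 32646, so the 21592 listed peaks (66.1%) are a part of a longer list, and a gene without a listed peak may have had one there. Positions are read as GRCm38, at which 11127 of 21546 peaks lay within 1 kb of a gene end, although the submitters' processing notes name mm9; an mm9 annotation was not used here.

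H2AZ takes the place of canonical H2A in nucleosomes next to transcription start sites and at enhancers, and is exchanged by the SRCAP and p400/TIP60 complexes. Many mammalian genes begin close to the start of a neighbour on the opposite strand, and such pairs can share a bidirectional promoter, which is often rich in CpG and serves genes of DNA repair, mitochondria and RNA processing. Other close neighbours stand in a row, with the 3′ end of one gene next to the 5′ start of the next, or face each other with their 3′ ends.

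The promoters of the 4 highest-scoring peaks at a pair of 5′ ends that held the listed starts of both partners are shown first, because the partners read the same DNA on opposite strands. Sequences are RefSeq promoters of GRCm38.p6, from 250 bases before to 50 bases after the listed start, written 5′ to 3′ on the strand of the gene. Capitals mark matches, on either strand, to GGGCGG (SP1), CCAAT (NF-Y), CCGGAAG (ETS/GABPA) and GCATGCG (NRF1); adjoining or overlapping matches run together. Pus7l, which encodes a pseudouridine synthase-like protein (chr15:94543458-94543757, minus strand), and Irak4, the kinase of interleukin-1 and Toll-like receptor signalling (chr15:94543410-94543709, plus strand), lay in a peak of score 32.51 with starts 153 bp apart. Their windows share 252 bases. Rfng, a fringe glycosyltransferase of the Notch pathway (chr11:120784155-120784454, minus strand), and Gps1, a COP9 signalosome subunit (chr11:120784020-120784319, plus strand), lay in a peak of score 31.32 with starts 66 bp apart and 165 shared bases. Spata17 (chr1:187215397-187215696, minus strand) and Gpatch2 (chr1:187215261-187215560, plus strand) lay in a peak of score 30.13 with starts 65 bp apart and 164 shared bases. Atg2b, an autophagy gene (chr12:105685192-105685491, minus strand), and Gskip (chr12:105685102-105685401, plus strand) lay in a peak of the same score, 30.13, with starts 111 bp apart and 210 shared bases.
Pus7l: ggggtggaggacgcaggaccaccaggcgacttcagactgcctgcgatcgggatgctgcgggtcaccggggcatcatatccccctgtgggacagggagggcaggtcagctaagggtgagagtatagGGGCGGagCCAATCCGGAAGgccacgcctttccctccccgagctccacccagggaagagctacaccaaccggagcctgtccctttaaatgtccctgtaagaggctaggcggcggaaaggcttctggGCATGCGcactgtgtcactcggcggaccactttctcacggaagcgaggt
Irak4: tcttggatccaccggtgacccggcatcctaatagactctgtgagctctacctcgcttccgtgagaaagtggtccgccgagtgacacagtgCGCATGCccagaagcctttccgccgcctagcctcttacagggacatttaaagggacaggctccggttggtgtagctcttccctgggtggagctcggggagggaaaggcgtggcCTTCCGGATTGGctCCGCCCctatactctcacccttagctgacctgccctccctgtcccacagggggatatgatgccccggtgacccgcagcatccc
Rfng: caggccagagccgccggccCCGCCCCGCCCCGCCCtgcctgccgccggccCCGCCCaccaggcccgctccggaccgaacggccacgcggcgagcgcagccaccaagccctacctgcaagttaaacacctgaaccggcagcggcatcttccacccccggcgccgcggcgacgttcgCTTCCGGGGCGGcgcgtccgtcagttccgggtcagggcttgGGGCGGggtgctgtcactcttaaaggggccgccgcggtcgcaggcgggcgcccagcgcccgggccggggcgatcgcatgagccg
Gps1: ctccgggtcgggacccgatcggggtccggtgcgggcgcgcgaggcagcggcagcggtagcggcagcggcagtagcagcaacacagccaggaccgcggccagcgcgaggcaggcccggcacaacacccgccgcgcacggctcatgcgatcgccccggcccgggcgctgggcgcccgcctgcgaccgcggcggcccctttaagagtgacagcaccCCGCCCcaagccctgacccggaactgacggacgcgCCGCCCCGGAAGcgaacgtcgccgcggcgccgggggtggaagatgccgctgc
Spata17: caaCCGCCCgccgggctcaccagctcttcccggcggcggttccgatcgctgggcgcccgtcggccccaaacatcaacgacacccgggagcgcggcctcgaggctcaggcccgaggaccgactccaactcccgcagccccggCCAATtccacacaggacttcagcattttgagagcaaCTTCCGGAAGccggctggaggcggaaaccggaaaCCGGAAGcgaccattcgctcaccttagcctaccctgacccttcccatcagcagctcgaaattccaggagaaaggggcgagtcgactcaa
Gpatch2: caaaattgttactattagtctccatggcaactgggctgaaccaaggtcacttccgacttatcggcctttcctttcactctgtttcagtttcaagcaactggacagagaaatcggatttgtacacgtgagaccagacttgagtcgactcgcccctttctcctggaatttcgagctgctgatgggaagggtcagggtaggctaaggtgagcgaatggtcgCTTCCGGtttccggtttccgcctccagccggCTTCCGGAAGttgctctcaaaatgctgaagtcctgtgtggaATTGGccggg
Atg2b: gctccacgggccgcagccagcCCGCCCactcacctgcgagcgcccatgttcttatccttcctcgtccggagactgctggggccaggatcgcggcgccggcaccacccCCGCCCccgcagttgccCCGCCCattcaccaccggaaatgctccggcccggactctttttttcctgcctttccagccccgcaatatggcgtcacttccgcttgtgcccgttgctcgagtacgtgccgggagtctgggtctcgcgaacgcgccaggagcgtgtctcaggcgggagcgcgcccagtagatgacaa
Gskip: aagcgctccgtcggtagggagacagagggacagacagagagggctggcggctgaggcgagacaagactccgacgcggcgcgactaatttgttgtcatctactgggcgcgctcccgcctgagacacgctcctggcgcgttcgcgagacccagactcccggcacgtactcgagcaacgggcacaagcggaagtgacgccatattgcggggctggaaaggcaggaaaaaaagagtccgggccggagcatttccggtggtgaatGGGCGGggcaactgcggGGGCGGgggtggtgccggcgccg

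The 4 matches of Irak4 are those of Pus7l read from the other strand, since they all lie in the shared bases. In Rfng and Gps1 the ETS/GABPA match overlaps an SP1 match. Spata17 and Gpatch2 each have 3 ETS/GABPA matches, and at 1 place the letters can be read on both strands. Atg2b and Gskip have SP1 matches only. A match is a description of letters and not a measured binding site.

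The highest-scoring shared peak lay at the 5′ ends of Atmin, a zinc finger gene of the ATM pathway, and Cmc2, a gene of cytochrome c oxidase assembly (chr8:116942507-116944498, score 38.48). It was the 2nd highest of all peaks used, and it covered both gene ends. Their bodies overlapped there, with the ends 939 bp apart. Next came the peak of Rasgrp4, a Ras exchange factor, and Fam98c (chr7:29154616-29156531, 34.6), which covered neither gene end and reached both windows from between them. Zfp398 and Zfp786, which encode C2H2 zinc finger proteins, shared a peak of score 33.11 (chr6:47835096-47837006). Smarcd2, a subunit of the BAF chromatin remodeller, and Tcam1, a testis cell adhesion gene, shared one of 32.81 (chr11:106271377-106273950), with ends 22 bp apart. Izumo1, whose protein fuses sperm and egg, ended 295 bp from the start of Rasip1, a Ras-interacting gene of blood vessels. Their peak scored 32.21 (chr7:45627606-45629737) and covered neither gene end. Cfap69 with Steap2, Donson with Cryzl1 and Fbxo3 with 4931422A03Rik each had a peak of 31.92. The lowest of the 10 highest, at Epb41l4b and LOC108168956, scored 31.62.

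**Figure D1:**
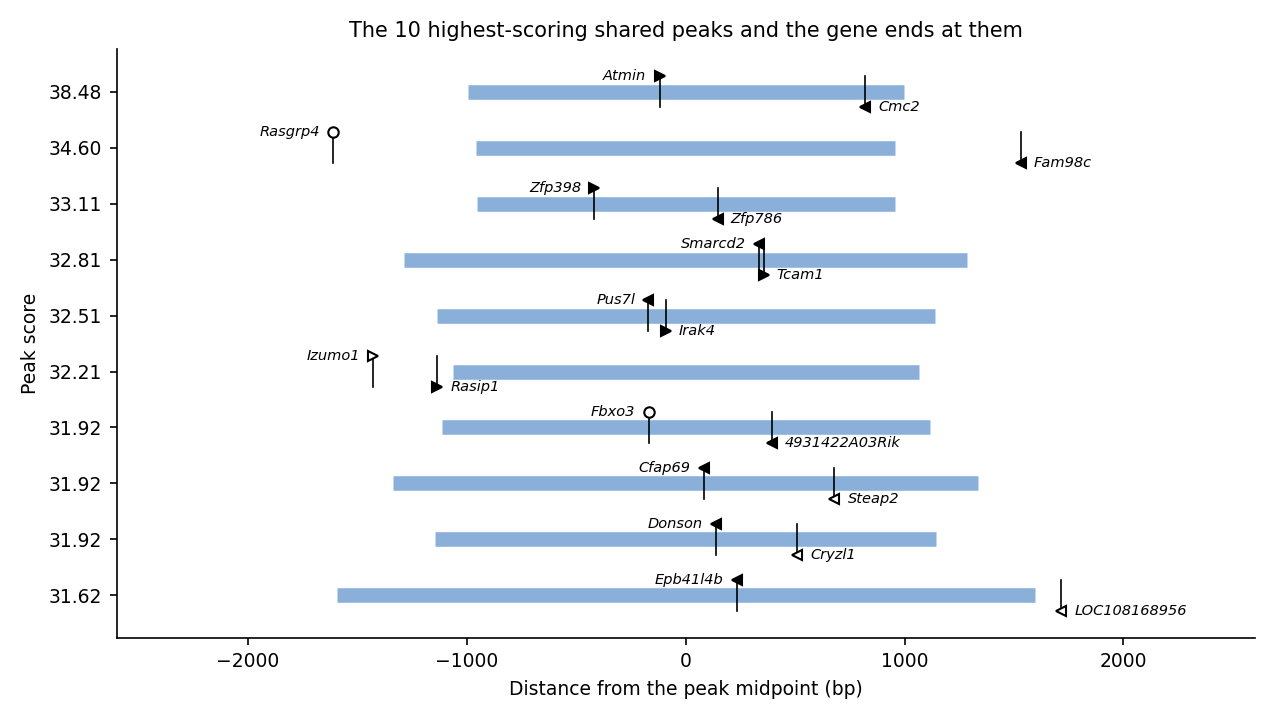
The 10 highest-scoring shared peaks, each drawn as a bar centred on its midpoint (horizontal axis, distance in bp; vertical axis, peak score). Vertical strokes mark the gene ends, arrowheads point in the direction of transcription, filled symbols mark a 5′ end and open ones a 3′ end, both ends, or (circle) a gene of unknown strand. The Rasgrp4 and Fam98c peak of score 34.6 and the Izumo1 and Rasip1 peak of score 32.21 cover neither gene end. The Atmin and Cmc2 peak of score 38.48 covers both.

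Most shared peaks joined 2 genes (1775, 96.2%). There were 68 at 3 genes, 1 at 4 and 1 at 5. The 5 genes were Tomm6, Gm20517, Usp49, Frs3 and Prickle4 (chr17:47687327-47690148, score 20.31), and the 4 were Eme2, Mrps34, Nme3 and Mapk8ip3 (chr17:24894220-24897296, 16.41). Peaks at 3 or more genes had a median score of 15.96 (14.62 to 16.78) and a median width of 2237.5 bp, against 16.93 (16.41 to 17.3) and 2216 bp for peaks at 2 genes. The highest of the peaks at 3 genes was that of Wdr83, Wdr83os and Man2b1, a lysosomal mannosidase gene (24.46).

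Strand was known for both genes in 1301 of the 1775 peaks at 2 genes (73.3%), and 1213 of these lay at a single end of each gene. Peaks at a pair of 5′ ends were the most frequent class, with 755 of the 1213 (62.2%, 59.4 to 65.0%). A 5′ end with a 3′ end was found at 428 (35.3%, 32.6 to 38.0%), and a pair of 3′ ends at 30 (2.47%, 1.67 to 3.51%). Among all 21297 pairs of neighbouring genes the order was different, with 16.6% divergent (5′ ends facing), 36.4% in tandem on 1 strand, 16.1% convergent (3′ ends facing) and 30.8% of unknown strand. Most of these pairs (12369) lay over 10000 bp apart, too far to share a peak under the rule. Of the 1963 pairs 0 to 1000 bp apart, 548 were divergent, 441 tandem, 416 convergent and 558 of unknown strand. Among close pairs of known strand, divergent ones were thus also the most frequent. Of the 755 peaks at a pair of 5′ ends, 470 joined genes that ran apart on opposite strands, 264 joined genes on opposite strands whose first parts overlapped, and 21 joined genes on the same strand. Peaks of single genes were also mostly at the 5′ end, 6788 of 9282 (73.1%), with 321 at a 3′ end (3.46%).

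Shared peaks had nearly the same median score as single-gene peaks. Their median was 16.73 (16.41 to 17.08; quartiles 12.83 and 20.7; range 4.66 to 38.48), against 16.7 (16.41 to 16.82; quartiles 12.23 and 21.18; range 4.17 to 38.78) for single-gene peaks, and the intervals overlap. Peaks at no gene end had a median of 8.35. Of the shared peaks 803 were in the top 25% of all peaks, with a score of at least 17.9 (43.5%, 41.2 to 45.8%), against 3970 single-gene peaks (42.8%, 41.8 to 43.8%). Over all gene-end peaks the share was 42.9%. A score at or above the median of the whole list was found for 1480 shared peaks (80.2%, 78.3 to 82.0%) and 7099 single-gene peaks (76.5%, 75.6 to 77.3%), with 77.1% over all gene-end peaks. Shared peaks made up 11.0% (7.26 to 15.8%) of the gene-end peaks in the lowest 10% of all scores, 18.7% (16.8 to 20.7%) of those between scores of 14.32 and 16.7, and 15.1% (13.5 to 16.8%) of those in the highest 10%.

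Shared peaks were slightly wider, with a median of 2217 bp (2192 to 2239) against 2171 bp (2158 to 2185) for single-gene peaks. Width is in part set by the rule, since a wide peak reaches more gene windows. Between 2000 and 2500 bp, the most frequent width, the median score was 17.92 (17.4 to 18.49) for 765 shared peaks and 18.2 (17.9 to 18.49) for 3749 single-gene peaks. In the width classes with 20 or more shared peaks the intervals of the medians overlapped. The difference between the medians ran from -0.4 at widths over 3000 to 3500 bp to 0.635 at widths over 1000 to 1500 bp.

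The class of the ends separated the scores more than sharing did. Peaks at a pair of 5′ ends had a median score of 17.9 (17.3 to 18.44) and a median width of 2297 bp (2269 to 2333), against 17.14 (17.0 to 17.3) and 2198 bp (2184 to 2209) for single-gene peaks at a 5′ end. Peaks at a 5′ and a 3′ end had a median of 15.915 (15.31 to 16.63) and a width of 2014 bp (1965 to 2070), both below the intervals of single-gene 5′ peaks. The 30 peaks at a pair of 3′ ends had a median of 10.89 (9.25 to 14.72) and a width of 1843.5 bp (1671 to 2075), against 10.14 (9.25 to 10.65) and 1686 bp (1633 to 1765) for the 321 single-gene peaks at a 3′ end. In the top 25% by score were 380 of the 755 peaks at a pair of 5′ ends (50.3%, 46.7 to 54.0%), 156 of the 428 at a 5′ and a 3′ end (36.4%, 31.9 to 41.2%) and 4 of the 30 at a pair of 3′ ends. The share was 45.9% (44.8 to 47.1%) for single-gene 5′ peaks and 9.03% (6.13 to 12.7%) for single-gene 3′ peaks. Among peaks at a 5′ end of at least 1 gene, the median score was 17.0 both for 1579 shared peaks (16.6 to 17.3) and for 6964 single-gene peaks (17.0 to 17.3).

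**Figure D2:**
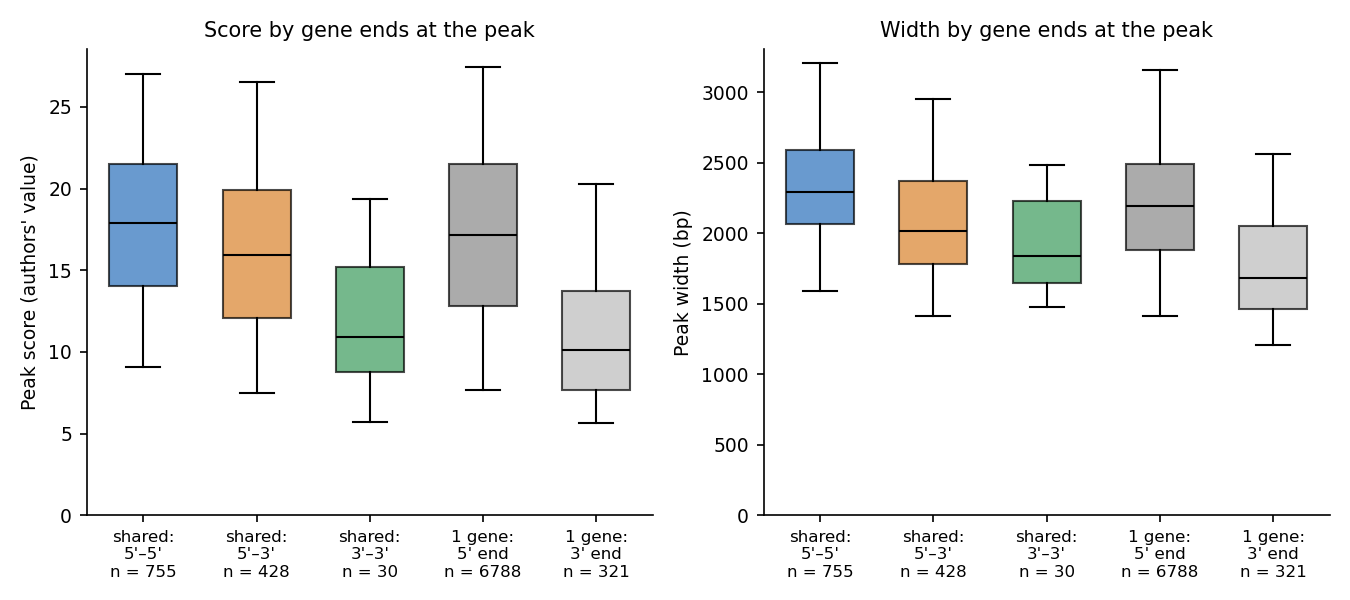
Score (left, the authors' value) and width in bp (right) of shared peaks by the gene ends they touch and of single-gene peaks. Boxes show the quartiles with the median as a line, and whiskers run from the 5th to the 95th percentile of peaks. The median score is 17.9 at a pair of 5′ ends, 15.915 at a 5′ and a 3′ end and 10.89 at a pair of 3′ ends, against 17.14 and 10.14 at single 5′ and 3′ ends.

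The highest peaks at a pair of 3′ ends were those of Kcp and Atp6v1fnb (24.46), Mien1 and Erbb2, the receptor tyrosine kinase gene (23.55), and Ccdc86 and Ptgdr2, a prostaglandin D2 receptor gene (19.37). Of the 30 such peaks 10 covered both ends and 10 covered neither. A start listed in the promoter table lay inside 4 of the 30 (13.3%, 3.76 to 30.7%), against 748 of the 755 peaks at a pair of 5′ ends (99.1%) and 414 of the 428 at a 5′ and a 3′ end (96.7%). For single-gene peaks at a 3′ end it was 25 of 321 (7.79%, 5.10 to 11.3%). The table holds 1 start per gene and none for chromosome 18.

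Peaks at a pair of 5′ ends lay across both ends. The ends lay a median of 147 bp apart, and the peak midpoint a median of 140.5 bp (131 to 159) from the centre between them. In 521 of 755 (69.0%) the midpoint was within 250 bp of that centre, and 674 peaks (89.3%) covered both ends. Both listed starts were inside the peak in 602 of 755 cases (79.7%). In these the starts lay a median of 163 bp apart and the midpoint a median of 111.5 bp from their centre, and the median score was 18.42 (17.9 to 18.88). Where the peak held 1 listed start (146 peaks), the median score was 15.48 (14.13 to 16.6).

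Peaks at a 5′ and a 3′ end followed the 5′ end. Their midpoint lay a median of 117.75 bp downstream of the 5′ end (87.0 to 137), and its distance had a median of 176 bp from the 5′ end and 1045.5 bp from the 3′ end. It was nearer the 5′ end in 395 of 428 peaks (92.3%, 89.3 to 94.6%), and in 282 of 292 (96.6%) where the ends were over 500 bp apart. The peak covered the 5′ end in 400 cases (93.5%) and the 3′ end in 199 (46.5%). H2az1, which encodes an H2AZ protein, was at such a peak with its 3′ end, 753 bp from the 5′ end of Dnajb14, a co-chaperone gene (chr3:137867188-137868810, score 14.72). Neither H2az2 nor Setd2, which encodes the methyltransferase for lysine 36 of histone H3 named in the series title, was at a shared peak.

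**Figure D3:**
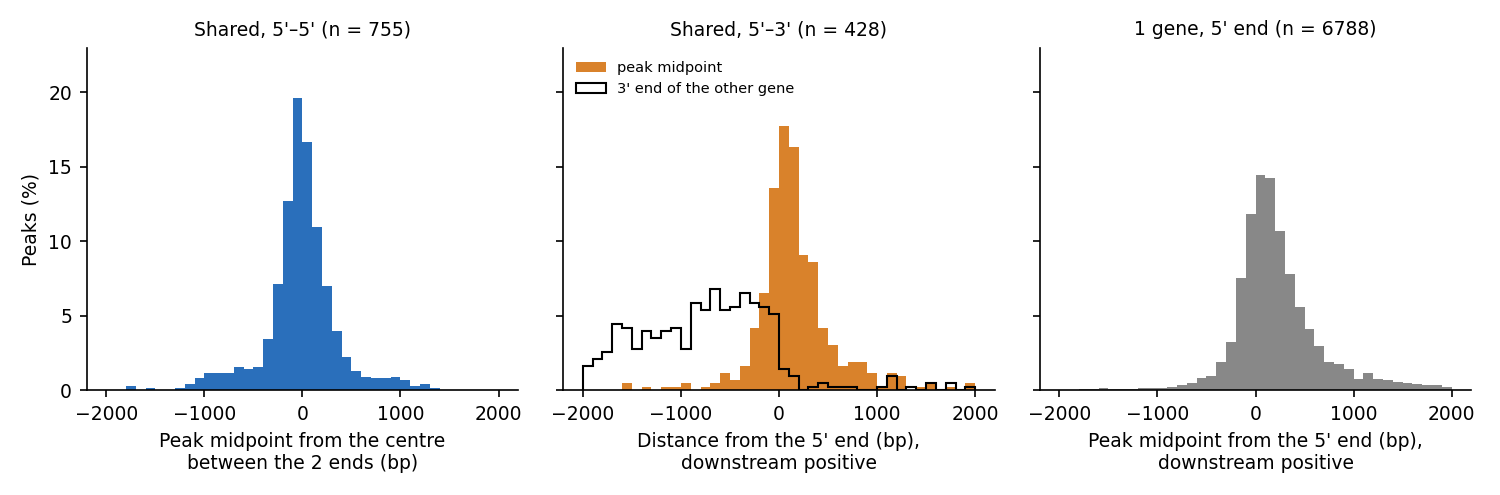
Position of peak midpoints, as percent of peaks in bins of 100 bp. The left panel gives the distance from the centre between a pair of 5′ ends (755 shared peaks), the middle panel the distance from the 5′ end of peaks at a 5′ and a 3′ end (428 shared peaks, filled) with the 3′ end of the other gene (outline), and the right panel the distance from the 5′ end of 6788 single-gene peaks. Midpoints in the middle panel gather 117.75 bp (median) downstream of the 5′ end and the 3′ ends spread mostly upstream of it.

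Whether a pair of close neighbours had a shared peak differed with its orientation. Of 1963 neighbouring pairs with a gap of 0 to 1000 bp, 978 had a shared peak at their facing ends (49.8%). Among these, 440 of 548 divergent pairs had one (80.3%, 76.7 to 83.5%), 247 of 441 tandem pairs (56.0%, 51.2 to 60.7%) and 35 of 416 convergent pairs (8.41%, 5.93 to 11.5%). The 3 intervals do not overlap. At these gaps the 1 kb windows overlap, so a peak at 1 facing end nearly always counted at both. Any peak at either facing end was found for 440 divergent, 258 tandem and 43 convergent pairs. The shares thus mostly show whether a peak was there, and sharing apart from that was not tested. Of 558 pairs of unknown strand 256 had a shared peak (45.9%). Where divergent bodies lay 0 to 250 bp apart the share was 80.9% (347 of 429), and it was 79.5% at 251 to 500 bp, 75.6% at 501 to 1000 bp and 69.1% (38 of 55) at 1001 to 2000 bp. Tandem pairs had 51.5% at 0 to 250 bp, 58.9% at 501 to 1000 bp and 40.8% at 1001 to 2000 bp. Beyond about 2 kb the rule itself limits sharing, because a peak must span from one window to the other: 6 of 53 divergent pairs at 2001 to 3000 bp shared a peak (11.3%), and 0 of 270 at 5001 to 10000 bp. At these distances divergent genes had separate peaks instead, in 16 of 53 pairs at 2001 to 3000 bp and 97 of 270 at 5001 to 10000 bp. A tandem pair 2001 to 3000 bp apart with a peak at 1 of the facing ends had it at the 5′ end in 155 cases and at the 3′ end in 6. The median score of the shared peaks of divergent pairs was 18.49 at 0 to 250 bp (17.9 to 19.39), 16.665 at 251 to 500 bp (15.51 to 17.6), 16.04 at 501 to 1000 bp (13.72 to 19.83) and 16.395 at 1001 to 2000 bp (13.54 to 17.26).

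**Figure D4:**
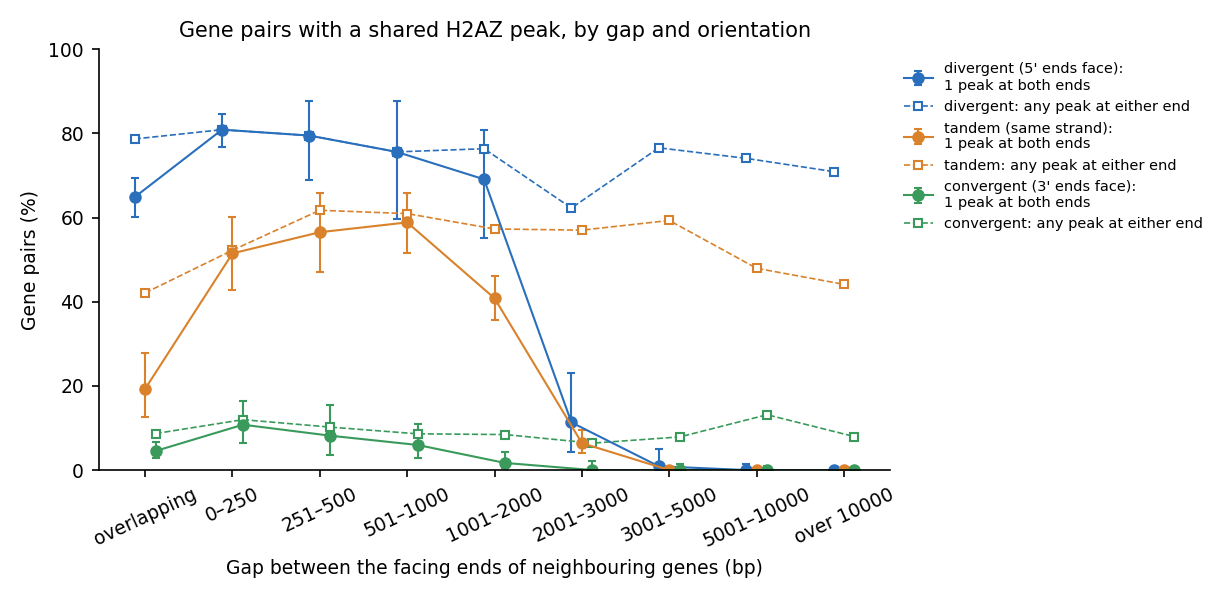
Percent of neighbouring protein-coding gene pairs with 1 peak at both facing ends (filled symbols, with 95% exact intervals) or with any peak at either facing end (open squares), by the gap between the genes in bp and by orientation. At gaps of 0 to 250 bp the share with a shared peak is 80.9% for divergent, 51.5% for tandem and 10.8% for convergent pairs. The fall past 2000 bp is set by the 1 kb windows, and up to 1000 bp a peak at 1 facing end nearly always counts at both.

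The remaining 108 close divergent pairs had no listed peak at either facing end. Of these, 30 (27.8%) lay in stretches of 20 or more protein-coding genes without any listed peak, of which the one with the most genes spans 7.25 Mb with 240 genes on chromosome 17 (chr17:33630246-40879154), where 2 peak numbers were not listed. There were 53 such stretches with 2343 genes in all, 1061 of them olfactory or vomeronasal receptor genes. Outside them 440 of 518 close divergent pairs had a shared peak (84.9%, 81.6 to 87.9%), against 247 of 410 tandem pairs (60.2%) and 35 of 394 convergent pairs (8.88%). The stretches hold no listed peak by definition, so leaving them out took away only pairs without a shared peak and had to raise these shares. Histone genes were in 1 of the 440 close divergent pairs with a shared peak, against 9 of the 108 pairs without one (8.33%, 3.88 to 15.2%), among them H2ac8 with H2bc8 and H2ac11 with H2bc11. These names and the stretches were chosen after their values were seen.

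Promoters at a pair of 5′ ends were rich in CpG, as were those of single-gene peaks. A listed start was inside the peak for 1349 of the 1492 genes at a pair of 5′ ends, for 412 of 425 genes whose 5′ end shared a peak with a 3′ end, and for 6071 of 6396 genes with a single-gene 5′ peak only. The median GC content over 300 bases was 62.3%, 61.3% and 62.0% in these 3 groups, against 56.3% over 17492 promoters of all protein-coding genes in the table. The median number of CpG was 24, 21 and 21, against 13. The ETS/GABPA letters CCGGAAG, on either strand, were in 28.9% of promoters at a pair of 5′ ends (26.5 to 31.4%) and 26.2% of those at a 5′ and a 3′ end (22.0 to 30.7%), against 15.9% at single-gene peaks (15.0 to 16.8%) and 11.9% of all promoters. ATGGCGG (YY1) was in 11.9% and 9.47%, against 7.61% (6.96 to 8.31%) and 5.44%. TATAAA, the core letters of the box bound by TBP, was in 4.23% (3.22 to 5.44%) and 6.07%, against 6.34% (5.74 to 6.98%) and 13.3%.

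GGGCGG (SP1) was in 68.2% of promoters at a pair of 5′ ends and in 76.0% (71.5 to 80.0%) of those at a 5′ and a 3′ end, against 70.4% (69.3 to 71.6%) at single-gene peaks and 46.3% of all promoters. CCAAT (NF-Y) was in 41.1% and 40.0%, against 37.7% and 39.2%. ACTACAA (ZNF143) was in 6.52% (5.26 to 7.98%) and 3.16%, against 3.9% (3.43 to 4.42%) and 3.82%. GCATGCG (NRF1) was in 7.64% and 8.01%, against 6.65% and 4.50%, and TGACGTC (CREB/ATF) in 6.52% and 5.10%, against 5.65% and 3.98%. The windows of partners overlapped in 460 of the 602 pairs (76.4%), by a median of 169 bases, so the same letters were often counted for both genes. No factor was measured, and no match says where one binds.

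Of the gene lists counted, those of mitochondrial, DNA repair and RNA genes were most often at shared peaks. Over all protein-coding genes 16.0% were at a shared peak and 55.4% had a peak at an end. Mitochondrial ribosomal protein genes and DNA repair genes each had 37 of 78 genes at a shared peak (47.4%, 36.0 to 59.1%). Splicing factor genes had 24 of 55 (43.6%, 30.3 to 57.7%), respiratory chain and ATP synthase genes 36 of 85 (42.4%, 31.7 to 53.6%), and RNA polymerase subunit genes 11 of 28 (39.3%, 21.5 to 59.4%). DNA replication genes had 19 of 53 (35.8%, 23.1 to 50.2%) and aminoacyl-tRNA synthetase genes 13 of 38 (34.2%, 19.6 to 51.4%). An end peak was listed for 86.8% (synthetases) to 92.7% (splicing factors) of these lists. Of all genes with an end peak, 29.0% were at a shared peak. This share was 52.1% for DNA repair, 51.4% for mitochondrial ribosomal proteins, 48.6% for the respiratory chain and 47.1% for splicing factors, with intervals above 29.0%. For RNA polymerase subunits (44.0%), DNA replication (39.6%) and synthetases (39.4%) the intervals held the 29.0%. Genes with close neighbours have more chance to share, and over all genes with another gene end within 2000 bp the share was 49.1%. Among members with such a neighbour the share was 82.8% for splicing factors (24 of 29, 64.2 to 94.2%), 74.0% for mitochondrial ribosomal proteins (37 of 50, 59.7 to 85.4%), 67.9% for the respiratory chain (36 of 53) and 66.1% for DNA repair (37 of 56). It was 65.0% for aminoacyl-tRNA synthetases (13 of 20, 40.8 to 84.6%), 61.3% for DNA replication (19 of 31, 42.2 to 78.2%), and 11 of 20 RNA polymerase subunit genes were at a shared peak (31.5 to 76.9%); these 3 intervals hold the share of all such genes.

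Of the 37 mitochondrial ribosomal protein genes 23 were at a pair of 5′ ends, against 1454 of all 3493 genes at a shared peak, counted in the same way. With every shared peak of a gene counted, 1492 genes were at such a pair. The highest were Mrps18c, across from the helicase gene Helq (score 28.56), and Mrpl37, across from Cyb5rl (28.34), and the scores of the list ran from 7.84 to 28.56. In DNA repair 22 of 37 were at a pair of 5′ ends, and 35 had a score at or above the median of all peaks, against 2874 of all 3493 genes. Xpc, the damage sensor of nucleotide excision repair, shared a peak with the RNA decay and splicing gene Lsm3 (27.44), and Atr, the checkpoint kinase, had its 3′ end at a peak with the 5′ end of the exonuclease gene Xrn1 (27.14). Ndufs6 of complex I and Mrpl36 lay 21 bp apart in a peak of 25.35, and Ndufb1 lay the same distance from Cpsf2, an mRNA 3′ processing gene (22.38). In splicing, the 3′ end of Sf3b2 was at the peak of the 5′ end of Pacs1 (30.72), and Snrpd2, a core protein of the spliceosome, shared one with Qpctl (22.86). Pole, the catalytic subunit of DNA polymerase epsilon, shared a peak of 30.72 with the peroxisomal gene Pxmp2, and Rpa1, of the single-strand binding complex, one of 28.64 with Smyd4. Polr2f and Polr3c, subunits of RNA polymerases, had peaks of 25.35 and 25.18 with 1700088E04Rik and Rnf115, and the mitochondrial synthetase gene Iars2 had a peak of 26.99 with Bpnt1.

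Other lists lay closer to the 16.0% of all genes, although their genes had an end peak more often than the 55.4% of all genes. Cytosolic ribosomal protein genes had 22 of 85 at a shared peak (25.9%, 17.0 to 36.5%). The highest were those of the 3′ end of Rpl3l with the 5′ end of Msrb1 (25.65) and of Rpl15 with Nkiras1 (25.2). Genes for H2AZ deposition and removal had 5 of 22 (22.7%, 7.82 to 45.4%), with scores from 16.7 to 22.08. Mbtd1, a subunit of the TIP60 complex, lay across from Utp18 (22.08), and Znhit1, of the SRCAP complex, shared a peak with Plod3 (20.58). Histone methylation and acetylation enzyme genes had 15 of 55 (27.3%, 16.1 to 41.0%), with the methyltransferase gene Suv39h2 beside Dclre1c (27.6) and the deacetylase gene Hdac3 beside Diaph1 (25.24). Translation initiation factor genes had 11 of 48 (22.9%), Rab GTPase genes 13 of 59 (22.0%), proteasome subunit genes 8 of 39 (20.5%), ubiquitin-specific protease genes 10 of 50 and Vps and sorting nexin genes 13 of 65. The highest of each of these lists were Eif1a with Tmed7 (28.34), Rab24 with Prelid1 (20.28), Psmb1 with Tbp, the TATA-binding protein gene (21.18), Usp45 with Tstd3 (22.97) and Vps9d1 with Zfp276 (28.04). Cell cycle and mitosis genes had 8 of 58 (13.8%, 6.15 to 25.4%), led by Cdca8 (24.4) and by Foxm1, a transcription factor of G2 and mitosis, with Rhno1 (22.07). Zfp series zinc finger genes had 49 of 394 (12.4%, 9.34 to 16.1%), and 8 of their 42 shared peaks joined 2 genes of the series. Only 79 of the 394 had another gene end within 2000 bp (20.1%, against 32.2% of all genes). Of these 79, 48 were at a shared peak (60.8%, 49.1 to 71.6%), against 49.1% of all such genes. For the other lists of this paragraph this share ran from 41.7% (ubiquitin-specific proteases) to 57.1% (Rab GTPases). Each of their intervals held the 49.1%.

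Genes of neural identity were on short lists, and few had close neighbours. Radial glia and neural progenitor genes had 1 of 22 at a shared peak (4.55%, 0.115 to 22.8%, an interval that holds the 16.0% of all genes), and 16 more had a peak of 1 gene only. The gene at a shared peak was the Notch effector Hes5, whose 3′ end was at a peak with the 5′ end of Pank4 (11.93). This peak (chr4:154963368-154965330) covered the Pank4 end. The Hes5 end (154962372) lay outside it, near the limit of the 1 kb rule. Neuron genes had 1 of 22, the tubulin gene Tubb3, whose 5′ end shared a peak with the 3′ end of Mc1r (10.14). Intermediate progenitor and neurogenesis genes had 2 of 14 (14.3%), Hes6 with the clock gene Per2 (14.63) and the fringe gene Mfng with Card10 (8.59). Of the progenitor genes 2 of 22 had another gene end within 2000 bp, against 7010 of 21774 over all genes (32.2%), and of the neuron genes 4 of 22. Of the members with such a neighbour, 1 of 2 progenitor genes, 2 of 2 intermediate progenitor genes and 1 of 4 neuron genes were at a shared peak. Developmental regulators of other lineages had 1 of 20 (Tbx6 with Ypel3, 13.42). Terminal genes of other tissues had 1 of 20 (the surfactant gene Sftpc with Bmp1, 21.23). Microglia and white blood cell genes had 1 of 14 (the 3′ end of Cd68 with the 5′ end of Mpdu1, 10.74). Astrocyte and oligodendrocyte genes had 0 of 14 and endothelial genes 0 of 12, so few genes stand behind each of these shares. No peak at either end was listed for 5 of the 22 progenitor genes, 9 of the 22 neuron genes, 8 of the 14 astrocyte and oligodendrocyte genes, 8 of the 12 endothelial genes and 12 of the 14 microglia and white blood cell genes. A peak is not a measure of expression.

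Gene families in tandem clusters differed. No Hox gene of 39 and no olfactory receptor gene of 1105 was at a shared peak, nor was any of 57 clustered protocadherin genes. Another gene end within 2000 bp was found for 43 protocadherin, 13 Hox and 19 olfactory receptor genes (1.72% of the receptor genes). Most receptor genes thus had little chance to share a peak under the rule. Most genes of these families had no listed peak at either end: 32 Hox, 1104 olfactory receptor and 50 protocadherin genes. Of these families, 850 olfactory receptor genes and 21 protocadherin genes lay in the stretches without any listed peak. Keratin genes had 3 of 53 (Krt222 with Smarce1 at 19.6, and Krt78 with Krt8 at 9.84), with another gene end within 2000 bp for 8. Cytochrome P450 genes had 1 of 97 (Cyp39a1 with Slc25a27, 19.69), with such a neighbour for 8. Replication-dependent histone genes, by contrast, had 16 of 62 (25.8%, 15.5 to 38.5%), all in 7 peaks that each joined at least 2 histone genes. Of the 50 with another gene end within 2000 bp, 16 were at a shared peak (32.0%, 19.5 to 46.7%), below the 49.1% of all such genes. However, 40 of the 62 had no listed peak at either end. Among histone genes with an end peak the share was 72.7% (49.8 to 89.3%), above the 29.0% of all genes with one. The shared histone peaks had low scores, with a median score of 8.05 and a highest of 10.44, at H2ac21, H2ac20 and H2bc21 (chr3:96218652-96222048), against 17.0 measured in the same way over all genes at a shared peak. Histone, protocadherin and olfactory receptor genes have related copies, which are near-identical for some of them. How reads that match several places were treated is not stated here, so values at these genes are uncertain. Members of a list at the same peak share its score. The lists were counted, and no test set one against another.

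**Figure D5:**
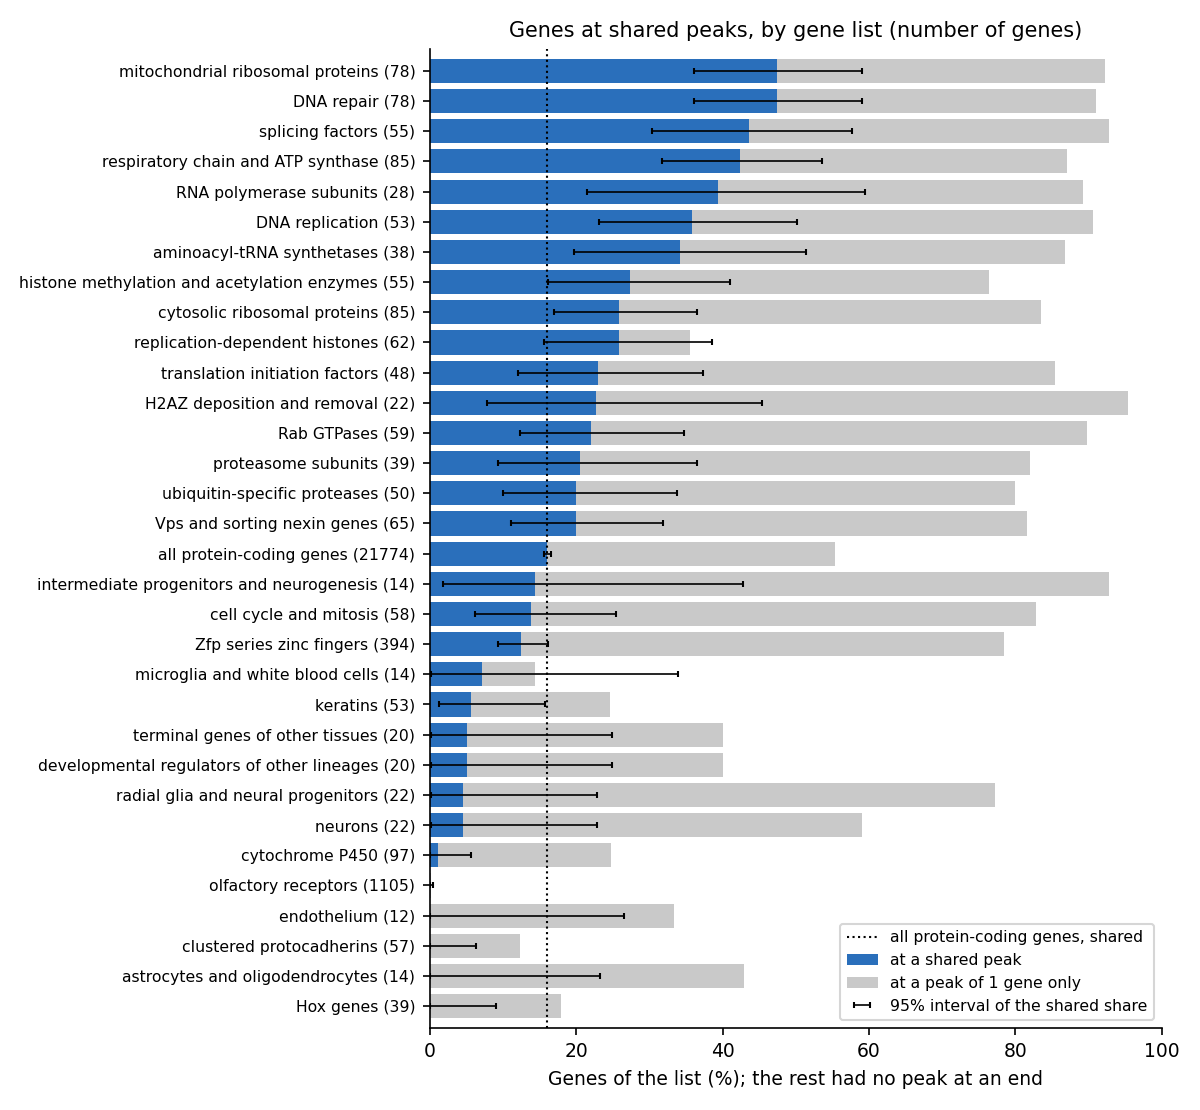
Percent of the protein-coding genes of each list at a shared peak (blue, with 95% exact interval) and at peaks of 1 gene only (grey), with the number of genes in brackets. The dotted line is the 16.0% of all protein-coding genes at a shared peak. Mitochondrial ribosomal protein and DNA repair genes reach 47.4%, and Hox, clustered protocadherin and olfactory receptor genes are at 0.

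The widest shared peaks were not the highest. The peak of Anp32a, a gene of the histone-binding Anp32 family, and Gm20346 spanned 4833 bp with a score of 8.05, that of Gng3 and Bscl2 4785 bp with 13.42, and that of Car11 and the clock output gene Dbp 4751 bp with 19.39. Nabp2 with Rnf41 (4695 bp) had 15.31 and Gm38469 with Arid2, of the PBAF remodeller (4624 bp), 16.49. The lowest scores were those of Abi3 with Phospho1 (4.66), the thyroid oxidase gene Duox2 with its maturation factor Duoxa2 (4.77), Mybpc2, a myosin-binding protein gene of muscle, with Spib, a B cell transcription factor (4.77), Lins1 with Asb7 (5.07), and Zfp13 with Zscan10 (5.07).

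At the limit of the rule the medians were close. The 110 shared peaks that reached the window of a second gene by 200 bp or less had a median score of 14.91, and the 87 single-gene peaks that missed one by 200 bp or less had 14.32. Just inside were the peaks of Gcc1 and Arf5 (12.83, by 1 bp), Pigbos1 and Rab27a (16.11, by 1 bp) and Maz and Kif22 (8.65, by 4 bp). Just outside were those of Ing4 (8.83, by 2 bp), Mrnip (17.3, by 3 bp) and Arhgef39 (8.05, by 5 bp).

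Leaving out Y, which had 1 gene-end peak and none shared, the share of gene-end peaks that were shared ran from 8.90% on chromosome 18 (26 of 292) to 24.1% on chromosome 7 (215 of 891), with 21.5% on chromosome 19 and 21.0% on chromosome 17. It went with the number of protein-coding genes per Mb (Spearman correlation 0.73 over 20 chromosomes, a description in which all points come from 1 library). On X, 41 of 360 were shared (11.4%, 8.30 to 15.1%). The median score on X was 8.95 for shared and 10.14 for single-gene peaks, whereas on the autosomes shared peaks had medians from 14.965 to 20.25 and single-gene peaks from 15.46 to 17.9.

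Shared peaks held predicted genes more often than single-gene peaks did, and long noncoding RNA genes less often. A predicted or Riken gene was a partner at 183 shared peaks (9.92%, 8.59 to 11.4%), against 233 single-gene peaks at such a gene (2.51%, 2.20 to 2.85%); a peak at 2 genes has 2 chances to hold one. An end of a lncRNA gene was also within 1 kb of 109 shared peaks (5.91%, 4.88 to 7.08%), against 1473 single-gene peaks (15.9%, 15.1 to 16.6%). Ends of small RNA genes (snoRNA, snRNA, miRNA or tRNA) were at 46 shared peaks (2.49%, 1.83 to 3.31%) and 167 single-gene peaks (1.80%, 1.54 to 2.09%).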

How the data were processed

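Neural progenitor cells of the E13 brain gave 1 H2AZ ChIP library and 1 input library, and 1 peak list was deposited for the ChIP library. The labels do not say whether samples were pooled before sequencing. Per the submitters' processing notes, CASAVA 1.4, FastQC and Bowtie2 2 were used, with the build mm9. Peak names in the deposited list begin with MACS; its version, settings, threshold and use of the input were not given in the sources used here. The score is a value per peak that the authors deposited, and its definition is not given either.

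Positions were read as GRCm38; no mm9 annotation was used here. Of 21592 peaks, 46 that are numbered after the last chromosome Y peak were left out, and 0 of these lay at 2 or more genes. Gene ends came from the RefSeq gene table of GRCm38.p6 (21774 protein-coding genes; 402 genes on other or unplaced sequences were left out). Strand came from the RefSeq promoter table, which matched 17492 of them (80.3%), so 5′ and 3′ ends are known for these only. Overlaps, medians and exact intervals were computed with Python 3.11.15, numpy 2.4.6, pandas 2.3.3 and scipy 1.17.1, and the code was tested on simulated data.

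The 31 gene lists, the peaks described and the comparisons were chosen with earlier results of these data known. Named were the 10 highest-scoring, 5 widest, 5 lowest-scoring and 5 most gene-rich shared peaks, the 3 highest of each orientation, the 2 highest of each list, any of Setd2, H2az1 or H2az2, and the 3 peaks on each side nearest the limit of the rule; some of these are not reported here. Printed promoters are those of the highest-scoring pairs of 5′ ends that held both listed starts. Alternatives changed the window, the overlap, the score, merging, the genes counted, the chromosomes, the width and the gene end.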

Additional observations from a re-analysis of the deposited data

How the results depend on the processing

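With 1 ChIP library no value has a replicate error, and which gene end is 5′ is unknown for 1 gene in 5 of the annotation. Over 86 alternatives, 55 values stayed within the interval of the reported one or, for 9 counts of shared peaks, within 1.5 times the reported count. The share of gene-end peaks that were shared (16.6%) was 14.8% with windows of 500 bp, 19.9% with 2 kb, 12.9% with the midpoint inside the window, 15.4% without predicted and Riken genes, 29.3% with genes of any type (3791 shared peaks) and 11.8% when overlapping genes were not counted as 2. The median score of shared peaks was 17.3 with the midpoint in the window and 18.25 at or above the median score, where single-gene peaks had 18.49; single-gene peaks had 15.51 with genes of any type and 17.0 on autosomes. The median width of shared peaks was 2240.5 bp (500 bp), 2170 bp (2 kb), 2251 bp (midpoint), 2268 bp (higher scores, against 2249 bp for single-gene peaks) and 2241 bp (peaks within 500 bp merged, against 2193 bp); single-gene peaks had 2101 bp with genes of any type. The score difference, shared minus single-gene (0.03), was 0.635 at widths over 1000 to 1500 bp, -0.4 at widths over 3000 to 3500 bp, 0.52 with the midpoint in the window and 0.9 with genes of any type, the last pair chosen after seeing the data. Also chosen then, counting listed starts inside the peak gave 721 shared peaks (7.94%) with a median score of 18.2 and width of 2340 bp, against 17.0 and 2187 bp for single-gene peaks, and 84.9% of close divergent pairs outside stretches without listed peaks had a shared peak. A window, gene or score filter changes which peaks are counted by its construction. Leaving out stretches without listed peaks likewise raises the share of close pairs by its construction. Other causes were not tested. No paired analysis was possible because there is 1 library per group and the results come from no test.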

Other observations

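Some shared peaks joined genes of the same or a related process, and the following were chosen after their values were seen. Mrpl46 and Mrps11, which encode proteins of both mitochondrial ribosome subunits, shared a peak of score 18.49, as did Mrpl47 and the complex I gene Ndufb5 (18.49). The cytosolic and mitochondrial histidyl-tRNA synthetase genes Hars and Hars2 shared one of 18.2, and the mitochondrial translation genes Mrps12 and Sars2 one of 16.41. The replication helicase gene Mcm4 lay with Prkdc, the kinase of end joining, at a peak of 20.58. Of the lists counted, 1 of 38 peaks with a mitochondrial ribosomal protein gene joined 2 of them, 1 of 14 with a synthetase gene, and 7 of 7 with a histone gene.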
